A study of Mus musculus with 36 samples.

Results

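The late stage of differentiation of mouse embryonic stem cells (mESCs) of the Xmas type was studied by comparing RNA-seq libraries of days 7 and 8 with libraries of day 6. The comparison took 12 of the 36 libraries of the series, the 8 of days 7 and 8 as the late group and the 4 of day 6 as the reference. In these female cells of C57/Bl6 origin the Hprt locus of each X chromosome holds a fluorescent reporter, GFP on one copy and mCherry on the second. All groups had been moved in steps from medium with 2i and LIF, which keeps mESCs naive, into DME HiHi, a serum medium without these factors. Each day held X14 double, X14 single, X18 double and X18 single, as replicates 1, 2, 3 and 4 in that order. X14 and X18 are names of lines, and the meaning of double and single is not given in the labels. A replicate number was followed over the days, so days 7 and 8 of one number are not independent cultures, and each line stands for 1 derivation. The differentiation is undirected, and in such bulk RNA fewer cells of a type and less RNA per cell cannot be told apart. Libraries of days 6 to 8 held 719000 to 1844590 reads in genes, and 3 reads corresponded to 1.46 to 3.70 RPM (reads per 1000000 reads of the library). On day 0 the mESC markers were abundant, and Pou5f1 stood at 1223 ± 290.2 RPM (SD, n = 4) and Nanog at 1876 ± 484 RPM.

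When pluripotent cells lose their self-renewal signals they first pass through a primed state, marked by Dnmt3b, Pou3f1 and FGF target genes, and then settle into germ layer or extraembryonic programmes. Trophoblast, the epithelium of the placenta, is built with Gata2, Gata3, Hand1, Tfap2c and Dlx3 and carries the simple keratins Krt7, Krt8, Krt18 and Krt19. H19 and Igf2 are neighbouring imprinted genes on distal chromosome 7, one a long non-coding RNA made from the maternal copy and the other a fetal growth factor made from the paternal copy, and both are abundant in placenta, endoderm and mesoderm of the embryo.

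In the late libraries H19, Igf2, 10 of 17 tested trophoblast genes and the keratins Krt7, Krt18, Krt19 and Krt20 were higher than on day 6. Lower were 8 of 21 tested genes of a list named naive pluripotency, 9 of 13 tested primed genes and the Nodal antagonists Lefty1 and Lefty2. Pou5f1 and Nanog were among those 8, while Zfp42 and Esrrb of the same list were not called. Of 13236 genes tested, 771 (5.83%) changed at an adjusted p under 0.05 and at least 1 on the log2 scale (limma, line and label as covariates). The 449 that rose made up 3.39% of the genes tested and the 322 that fell 2.43%. At 3789 genes the unadjusted p was under 0.05, and the median log2 change of all genes was 0.01. In 437 of the 449 and in 318 of the 322 genes the change had the same sign in all 4 cultures. The late libraries did not overlap those of day 6 in RPM for 290 of the 771 genes, against 5.40% of all genes tested. Of the risers 314 reached 10 RPM in the late group and 46 reached 100 RPM. The count of 771 rested on all 4 cultures, and it was 456, 408, 339 and 420 without replicates 1, 2, 3 and 4. All 771 genes kept their sign in each of these fits. The signs and the overlap were read from the libraries that made the calls, so they describe the called genes and are not independent support.

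**Figure D1:**
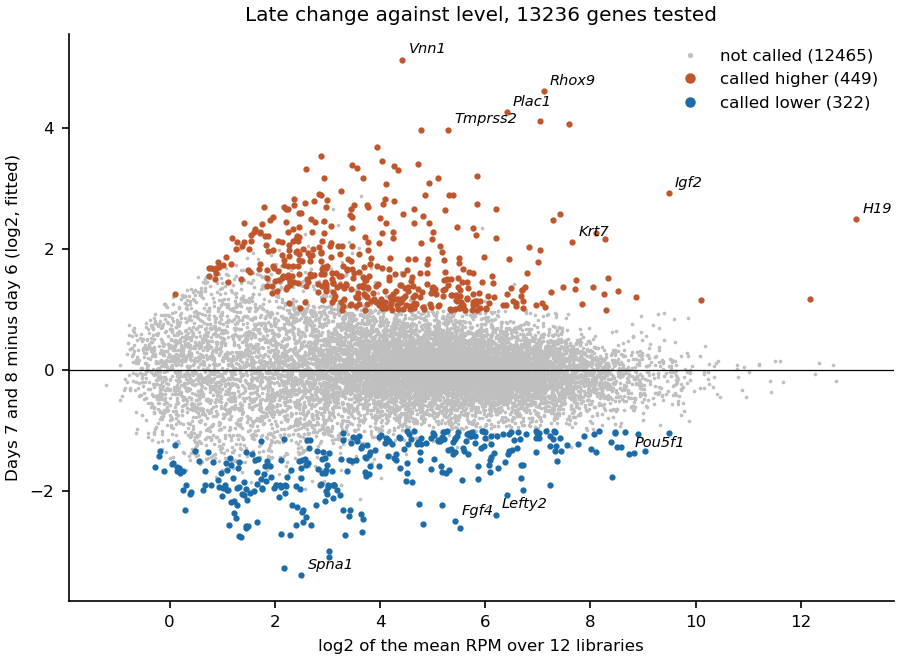
Late change against level for 13236 genes: the x axis is the log2 of the mean RPM over the 12 libraries and the y axis the fitted log2 difference of days 7 and 8 minus day 6. Each point is a gene, with 449 called higher (orange), 322 called lower (blue) and the rest grey, and H19 stands farthest to the right.

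H19 (chromosome 7, 142575529 to 142578143, minus strand, mm10 as in the deposited table) was the most abundant riser. In replicates 1 to 4 it measured 3534, 943, 3350.1 and 643 RPM on day 6, 12700.3, 3252, 12656 and 3099.6 RPM on day 7 and 20063, 7775, 25885 and 8183 RPM on day 8. Every culture rose on both days, and the libraries labelled double stood above those labelled single on each day, so that the groups as wholes overlapped. Its late change was 2.498 (log2, SE 0.31, limma, adjusted p = 0.00058). In the fit that keeps the days apart, day 7 lay 1.95 (SE 0.21) and day 8 3.04 (SE 0.21) above day 6. H19 took 0.0722% to 0.397% of the reads in genes on day 6 and 0.867% to 2.90% on day 8. Igf2 (chromosome 7, 142650766 to 142666816, minus strand) measured 297, 64.2, 133 and 39.7 RPM on day 6, 1283, 417, 524 and 186 RPM on day 7 and 2648, 1432, 1036 and 542 RPM on day 8. It too rose in each culture on each day, and here X14 lay above X18 within each label. The late change of Igf2 was 2.93 (SE 0.35, limma, adjusted p = 0.00046), and both genes stayed called without any 1 replicate. Igf2 overlaps an antisense gene, Igf2as, and use of the strand in counting is not stated, so reads of that pair cannot be told apart. Day 0 held only 1.46 RPM of H19 and 0.604 RPM of Igf2 (means, n = 4), and day 5 held 413 and 16.9 RPM.

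**Figure D2:**
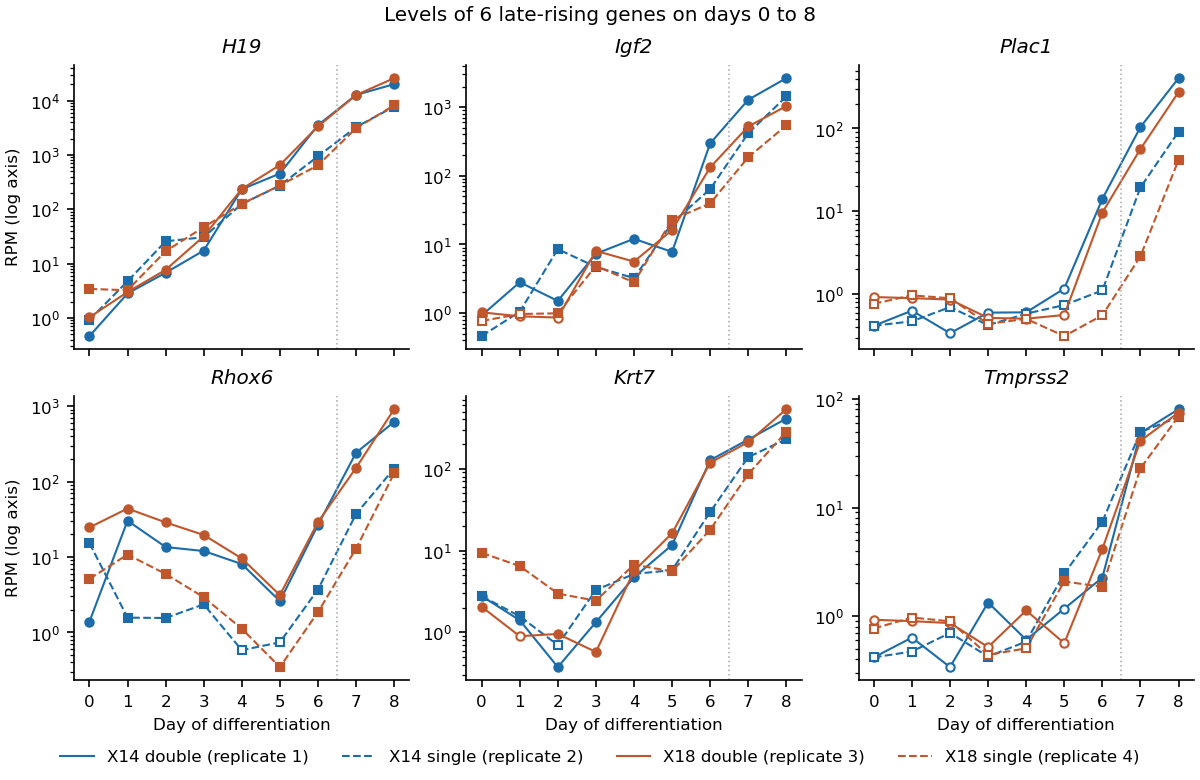
Levels of H19, Igf2, Plac1, Rhox6, Krt7 and Tmprss2 by day of differentiation (x axis) in RPM on a log axis (y axis). Each line is 1 of the 4 cultures, open symbols are libraries without a read drawn at 0.9 read, and the dotted line separates day 6 from days 7 and 8. The mean of each gene is higher on day 8 than on day 5, and Plac1 has no read on days 0 to 5.

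Among the imprinted genes 5 of 20 tested rose and 0 fell, against 3.39% of all genes called higher and 2.43% called lower. The list median was 0.34 against 0.01 for all genes. Besides H19 and Igf2 the risers of the list were Peg10, Cdkn1c and Airn. Peg10, a retrotransposon-derived gene needed for the placenta, measured 3467, 1408, 2631 and 1291 RPM on day 6 and 15632, 6442, 5968 and 2015 RPM on day 8. It was higher on day 8 in every culture, and its late change was 1.18 (SE 0.25, limma, adjusted p = 0.0091), with an adjusted p of up to 0.0523 without replicate 1 or 3. Cdkn1c, an inhibitor of cyclin-dependent kinases, measured 45.2, 38.3, 40.8 and 18.6 RPM on day 6, 120.0, 65.4, 74.5 and 38.7 on day 7 and 391, 159.9, 413 and 179.6 on day 8, and all 4 libraries of day 8 stood above all 8 of days 6 and 7. Its change was 1.99 (SE 0.47, limma, adjusted p = 0.014), and the adjusted p reached 0.0615 without replicate 1, 2 or 4. Airn, the non-coding RNA antisense to Igf2r, had no read on day 6 and at most 8.31 RPM later, it lies within Igf2r on the other strand, and its call was lost without any 1 replicate (adjusted p up to 0.205) and with the replicate number as a block (adjusted p = 0.0575). Not called were Igf2r, the receptor that clears IGF2 (-0.01, adjusted p = 0.98 in limma), Meg3 (-0.32, adjusted p = 0.51 in limma) and Mest (-0.67, adjusted p = 0.0055 in limma, under the minimum fold). Of 15 tested genes of the IGF axis 4 rose, namely Igf2, H19 and the binding proteins Igfbp4 and Igfbp6. Igfbp4 measured 23.7, 41.96, 38.01 and 34.7 RPM on day 6 and 68.01, 90.4, 111 and 105 RPM on day 8, without overlap between the groups (1.24, SE 0.20, limma, adjusted p = 0.0017). Igf1 and Igfbp1 had no read in these 12 libraries.

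Among trophoblast genes 10 of 17 tested rose and 0 fell, against 3.39% of all genes called higher, and the list median was 1.38. Eomes, a factor of streak and trophoblast, was counted in the primitive streak list and fell (-2.21, limma, adjusted p = 0.0051). Without line and label as covariates 3 of the 17 were called, and 5 to 7 when 1 replicate was left out. The list and the comparison were chosen with earlier results of these data known. The summed level of its 22 genes was 235 to 718 RPM on day 6, 409 to 1319 on day 7 and 874 to 2663 on day 8. Plac1, an X-linked gene of the placenta (chromosome X, 53069995 to 53240111), measured 14.1, 0, 9.68 and 0 RPM on day 6, 104, 19.4, 56.6 and 2.87 on day 7 and 405, 91.3, 274 and 41.6 on day 8. It was seen first in the libraries labelled double, and those labelled single carried it from day 7. The late change of Plac1 was 4.27 (SE 0.65, limma, adjusted p = 0.0014). Rhox6, a homeobox gene of the X-linked reproductive cluster that placenta expresses, measured 26.6, 3.703, 29.03 and 1.86 RPM on day 6, 240.4, 37.1, 152 and 12.9 on day 7 and 618, 149, 910.4 and 128 on day 8 (4.08, SE 0.58, limma, adjusted p = 0.001). Its neighbour Rhox9 measured 25.4, 1.23, 15.2 and 0 RPM on day 6 and 440.2, 120.5, 663 and 88.03 RPM on day 8 (4.62, SE 0.67, limma, adjusted p = 0.0011). Genes of this cluster resemble each other, and how reads shared between them were counted is not stated.

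Several regulators of trophoblast were among the risers, and others were not. Gcm1, Cited1, Ets2, Fgfr2, Esrrb and Tead4 of the same list were not called. Cdx2, which stood in the list of endoderm factors and also acts in trophoblast, was not called either. Hand1, needed for trophoblast giant cells and for the heart, measured 22.6, 2.47, 15.2 and 0.6198 RPM on day 6, 44.99, 3.54, 40.3 and 6.45 on day 7 and 104, 32.6, 73.1 and 19.03 on day 8, and rose by 2.43 (SE 0.54, limma, adjusted p = 0.01). Gata3 measured 20.4, 3.703, 17.3 and 0.6198 RPM on day 6 and 44.1, 24.3, 30.5 and 10.7 RPM on day 8, with the groups overlapping (1.85, SE 0.49, limma, adjusted p = 0.023). Gata2, which stood in the list for blood and endothelium and also acts in trophoblast, measured 16.4, 3.703, 11.1 and 3.72 RPM on day 6, 109, 22.1, 43.7 and 4.302 on day 7 and 231, 66.1, 149.7 and 24.98 on day 8 (2.75, SE 0.49, limma, adjusted p = 0.003). Dlx3, a homeobox gene of placenta and skin, had a mean of 10.9 ± 7.85 RPM on day 6 and 67.1 ± 41.1 RPM on day 8 (SD, n = 4), and rose by 2.06 (SE 0.36, limma, adjusted p = 0.0027). Sct, the hormone secretin, went from 1.13, 0, 1.38 and 1.86 RPM on day 6 to 71.6, 18.5, 78.3 and 13.1 RPM on day 8 (3.08, SE 0.86, limma, adjusted p = 0.031). The other called members, which the naming rule did not reach and which were named after their values were seen, were Tfap2c (1.38), Esx1 (1.41) and 1600029D21Rik (1.24). Esx1 lost its call without any 1 replicate (adjusted p up to 0.175) and with the replicate number as a block (adjusted p = 0.0528), Tfap2c without replicate 2 (adjusted p 0.0565) and 1600029D21Rik without replicate 1 or 2 (up to 0.0909). The defining markers were not all present. Tpbpa, Prl3d1, Prl2c2 and Ctsq, made by differentiated trophoblast of the placenta, had no read in the 12 libraries, Elf5 of trophoblast stem cells reached at most 2.38 RPM, and Ascl2 ranged from 6.17 to 55.97 RPM on day 6 and from 9.32 to 74.2 RPM later (0.62, adjusted p = 0.18 in limma). Calls were lost for Sct without replicate 1, 2 or 3 (adjusted p up to 0.129) and for Hand1 without replicate 3 or 4 (up to 0.0797). Gata3 lost its call without replicate 2 or 4 (up to 0.124). Without line and label as covariates calls were lost for Gata2 and for all called list members except Plac1, Rhox6 and Krt7. Sct and Gata3 lost theirs with voom as well.

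To set sequence beside these levels, the 250 bases before the transcript start were read from the RefSeq promoter table (GRCm38.p6) for the called trophoblast genes, Gata2, Rhox9, Nxf7, H19 and Igf2, of which 8 of 15 were found. GATA motifs (TGATAA or AGATAA) and the AP-2 motif GCCNNNGGC were searched on both strands. Shown are the distal start of Plac1 and the start of Nxf7, the X-linked risers found in the table whose windows held a match, and Krt7 and Gata3, the called list members with more than 1 AP-2 match, with matched letters in capitals.
Plac1 (chrX:53240111-53240360, minus strand): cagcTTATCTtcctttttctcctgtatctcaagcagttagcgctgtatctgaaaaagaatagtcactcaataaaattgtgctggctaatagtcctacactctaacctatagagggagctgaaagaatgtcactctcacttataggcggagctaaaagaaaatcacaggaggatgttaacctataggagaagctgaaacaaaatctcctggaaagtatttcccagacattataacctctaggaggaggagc
Nxf7 (chrX:135598782-135599031, minus strand): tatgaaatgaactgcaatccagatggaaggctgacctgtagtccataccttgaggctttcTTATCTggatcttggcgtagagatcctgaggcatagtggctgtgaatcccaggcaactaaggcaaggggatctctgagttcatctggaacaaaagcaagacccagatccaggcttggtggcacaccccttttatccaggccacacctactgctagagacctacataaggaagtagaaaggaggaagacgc
Krt7 (chr15:101412153-101412402, plus strand): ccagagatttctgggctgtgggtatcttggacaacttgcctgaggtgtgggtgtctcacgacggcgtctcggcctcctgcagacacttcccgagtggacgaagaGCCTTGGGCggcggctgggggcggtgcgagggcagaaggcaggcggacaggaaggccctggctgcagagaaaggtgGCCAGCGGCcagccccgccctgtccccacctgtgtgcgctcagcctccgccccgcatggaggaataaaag
Gata3 (chr2:9878601-9878850, minus strand): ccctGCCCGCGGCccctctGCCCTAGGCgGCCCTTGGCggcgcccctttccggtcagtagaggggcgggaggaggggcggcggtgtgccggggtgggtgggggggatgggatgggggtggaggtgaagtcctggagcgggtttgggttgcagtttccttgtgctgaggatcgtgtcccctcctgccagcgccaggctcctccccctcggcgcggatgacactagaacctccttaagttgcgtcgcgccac
Plac1 and Nxf7 each held 1 AGATAA match, read as TTATCT on the printed strand, and Krt7 held 2 and Gata3 3 AP-2 matches, neither with a GATA match. A second Plac1 start in the table held none of the 3 motifs. A GATA match stood in 16.6% of the 32851 windows in the table, in 8.95% of windows of tested genes, in 10.9% of those of genes that rose and in 11.5% of those of genes that fell. For the AP-2 motif the shares were 13.7%, 21.3%, 22.3% and 17.1%. These matches are a description of letters, and a match is not a bound site.

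Of the 15 largest rises 5 lay on the X chromosome, namely Rhox9, Plac1, Nxf7, Rhox6 and Arhgef6. Over all tested X-linked genes 34 of 493 (6.90%) rose and 19 (3.85%) fell, beside 3.26% and 2.38% of the other genes, given here as a description without a test. Nxf7, of the mRNA export factor family (chromosome X, 135579555 to 135598777), measured 29.4, 1.23, 15.2 and 1.86 RPM on day 6, 214, 25.6, 131 and 5.74 on day 7 and 514, 126, 426 and 80.9 on day 8 (4.13, SE 0.61, limma, adjusted p = 0.0012). The largest fitted rise was that of Vnn1, a pantetheinase of epithelia, which had no read in any library of day 6 and measured 22.5, 8.84, 15.4 and 5.02 RPM on day 7 and 71.1, 33.04, 58.3 and 42.8 RPM on day 8. With day 6 set at 3 reads per library, Vnn1 was at least 13.8-fold higher in the late group (limma, adjusted p = 0.00046). Tmprss2, a transmembrane serine protease of epithelia, measured 2.26, 7.41, 4.15 and 1.86 RPM on day 6, 48.5, 49.5, 41.1 and 22.9 on day 7 and 80.5, 68.02, 74.8 and 68.998 on day 8. The groups did not overlap and on day 8 the 4 cultures lay close together (3.98, SE 0.37, limma, adjusted p = 0.0001). Kitl, the ligand of the KIT receptor, measured 1.13, 0, 2.76 and 1.24 RPM on day 6 and 50.9, 30.1, 28.7 and 16.7 RPM on day 8, again without overlap (3.69, SE 0.48, limma, adjusted p = 0.00069). Pmp22, a membrane protein of myelin and of epithelial junctions, rose from 18.7, 3.703, 7.603 and 8.68 to 86.7, 96.2, 115 and 139 RPM (3.21, SE 0.37, limma, adjusted p = 0.00044).

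Of the rest of the 15, Slc39a8, a zinc and manganese transporter, was 4.04 ± 3.02 RPM (SD, n = 4) on day 6 and 33.8 ± 7.53 RPM on day 8 (3.31, SE 0.46, limma, adjusted p = 0.00094). Extl1, an exostosin-like glycosyltransferase, was 1.32 ± 1.79 and 20.9 ± 14.8 RPM (3.395, SE 0.46, limma, adjusted p = 0.00088). Gjb2, Pparg and Arhgef6 appeared mainly on day 8 and were uneven between cultures. Gjb2, the gap junction protein connexin 26, had 2 reads in all on day 6 and measured 12.996, 0, 6.85 and 0 RPM on day 7 and 178, 31.1, 91.4 and 9.52 RPM on day 8, a ratio of 134 between the pooled late and day 6 reads (95% exact counting interval 36.9 to 1108). Pparg, a nuclear receptor of fat cells that the placenta also needs, had no read on any day up to day 6 and measured 12.5, 0.884, 1.71 and 0.717 RPM on day 7 and 65.9, 20.4, 33.1 and 7.14 RPM on day 8, at least 7.63-fold higher. Arhgef6, an exchange factor for Rac and Cdc42, measured 197, 23.3, 59.2 and 7.14 RPM on day 8 after 1.13, 0, 0.691 and 2.48 RPM on day 6. In these 3 genes day 8 X14 double was the highest library. Gjb2 and Pparg lost their call without any 1 replicate (adjusted p up to 0.151 and 0.197), Arhgef6 without replicate 1, 2 or 3 (up to 0.141), and Pparg also with the replicate number as a block (adjusted p = 0.0505).

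**Figure D3:**
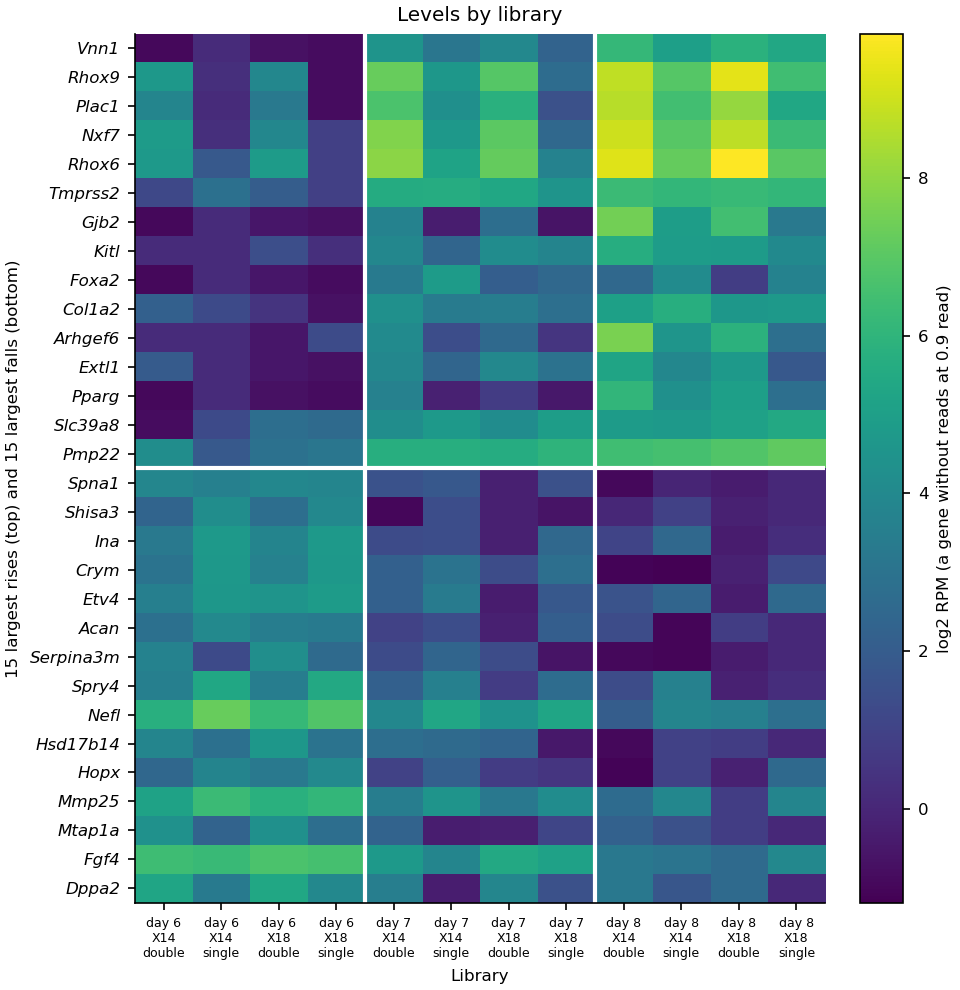
Levels of the 15 largest rises (top) and the 15 largest falls (bottom) in the 12 libraries, as log2 RPM by colour (dark low, bright high). Columns are the libraries of days 6, 7 and 8, rows are genes, and a gene without reads is drawn at 0.9 read. Rhox9, Plac1, Nxf7 and Rhox6 are brighter in the columns labelled double, and Tmprss2 and Pmp22 are near even across the columns of day 8.

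Simple epithelial genes rose in part. Of 21 tested 5 rose and 0 fell, against 3.39% and 2.43% of all genes, with a list median of 0.05. Krt7 measured 127, 29.6, 118 and 17.97 RPM on day 6, 227, 139, 212 and 86.04 on day 7 and 410.1, 229.8, 534 and 283 on day 8, and its change was 2.12 (SE 0.36, limma, adjusted p = 0.0025). Krt19 measured 140.2, 154, 141 and 108 RPM on day 6, 347, 304, 290.5 and 225 on day 7 and 616, 396, 738 and 433 on day 8, and here the groups did not overlap (1.53, SE 0.24, limma, adjusted p = 0.0017). Krt18 measured 825, 544, 646 and 325 RPM on day 6 and 1741, 1115, 2758 and 1355 RPM on day 8 (1.15, SE 0.25, limma, adjusted p = 0.01), a call lost without replicate 3 or 4 (adjusted p up to 0.0603), and Krt8, its partner, reached 0.85 with an adjusted p of 0.067 (limma). Elf3, an epithelial ETS factor, rose by 1.09 (SE 0.18, limma, adjusted p = 0.0019), under the minimum fold without replicate 2. Elf3 and Krt18 also lost their calls without line and label as covariates (limma, adjusted p 0.244 and 0.0719). With all 36 libraries in the fit both calls were lost as well. Epcam, an adhesion molecule of epithelia and of mESCs, stood at 377 to 441 RPM on day 6 and 267 to 527 RPM later (0.05), and Cdh1 (E-cadherin) at 1229 to 1355 and 793 to 1422 RPM (-0.29). Of 7 tested genes of stratified and surface ectoderm Wnt6 (2.44), Dlx3 and Grhl3 (1.41) rose and Sfn (-1.05) fell. Krt5 had no read, Krt14 at most 0.519 RPM and Trp63 at most 2.499 RPM, so the defining markers of that lineage were at or near 0. The call of Grhl3 was lost without any 1 replicate (adjusted p up to 0.254) and with the replicate number as a block (adjusted p = 0.0531), and that of Sfn without replicate 1 or 2 (up to 0.0562).

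**Figure D4:**
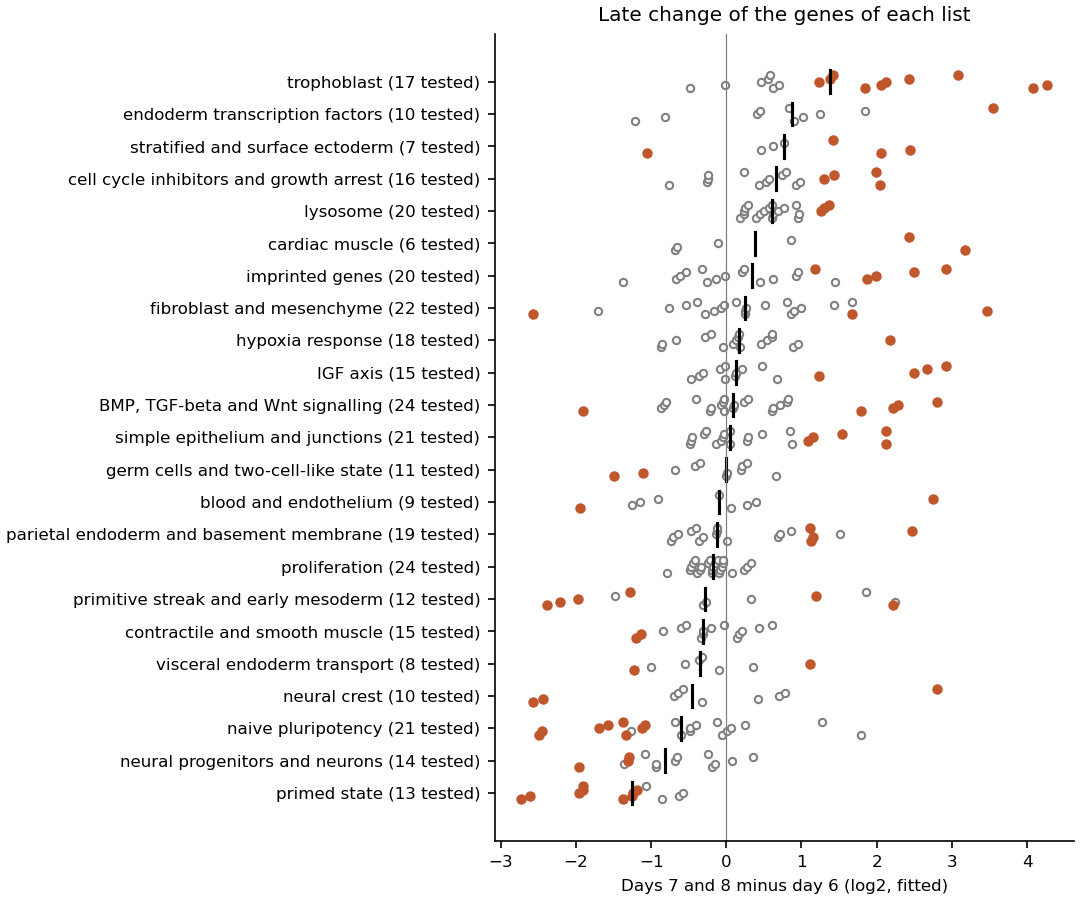
Fitted log2 change of days 7 and 8 minus day 6 (x axis) of each tested gene of the lists with at least 5 tested genes (y axis, ordered by median). Filled points are called genes, open points are not called and black bars are list medians, from 1.38 for trophoblast to -1.25 for the primed state.

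Endoderm was represented by few called genes. Foxa2, a forkhead factor of endoderm and of the node, had 1 read in all on day 6 and measured 9.997, 29.2, 4.28 and 5.74 RPM on day 7 and 5.71, 17.5, 1.74 and 13.1 RPM on day 8. X14 single was the highest library on both days, and the ratio of pooled reads was 60.9 (95% exact counting interval 10.7 to 2424). The fitted change was 3.54 (SE 0.44, limma, adjusted p = 0.00058), and of 10 tested endoderm factors Foxa2 alone was called. Of these 10, 8 had a log2 change above 0, beside 51.2% of all genes, and the list median was 0.87. The summed level of the 16 genes of the list was low, at 10.54 to 19.35 RPM on day 6 and 19.21 to 59.28 RPM on day 8. Of 22 genes of visceral endoderm transport in the table only 8 could be tested. Afp, Ttr and Apoa1 had no read in the 12 libraries, and Apob, Amn and Hnf4a stayed at or under 1.38 RPM, so the defining markers of visceral endoderm were at or near 0. Within that list Dab2, an endocytic adaptor, rose by 1.12 (SE 0.26, limma, adjusted p = 0.013) and Lrp2, the receptor megalin, changed by -1.22 (SE 0.32, limma, adjusted p = 0.021), and each call was lost without replicate 1, 2 or 3 (adjusted p up to 0.105 and 0.119). Among 19 tested genes of parietal endoderm and basement membrane 4 rose, against 3.39% of all genes. They were Plat, Lamb2, Nid1 and Col4a2, and the list median was -0.12. Col4a2, a chain of collagen IV, measured 83.7, 82.7, 62.2 and 50.8 RPM on day 6 and 356, 198, 195 and 93.98 RPM on day 8 (1.12, SE 0.23, limma, adjusted p = 0.0069). Sparc (-0.13) and Lamb1 (0.01) were not called, and Lama1 and Thbd reached at most 5.19 and 2.43 RPM. Plat lost its call without any 1 replicate (adjusted p up to 0.264) and with the replicate number as a block (adjusted p = 0.0555), Lamb2 without replicate 1, 3 or 4 (up to 0.0946), Nid1 without replicate 1, 2 or 3 (up to 0.149) and Col4a2 without replicate 1 or 3 (up to 0.0615).

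In the mesenchymal list 2 of 22 tested genes rose and 1 fell, beside 3.39% and 2.43% of all genes. Col1a2, a chain of collagen I, measured 4.52, 2.47, 1.38 and 0.6198 RPM on day 6, 20.5, 10.6, 11.1 and 7.17 on day 7 and 33.7, 52.5, 25.2 and 26.2 on day 8, and the groups did not overlap (3.47, SE 0.52, limma, adjusted p = 0.0013). Col1a1, the other chain, ranged from 3.46 to 14.8 RPM on day 6 and from 2.57 to 21.9 RPM later (0.13, adjusted p = 0.88 in limma). Pdgfrb rose by 1.68 (SE 0.43, limma, adjusted p = 0.02), Lox, which crosslinks collagen, fell by 2.57 (log2, SE 0.52, limma, adjusted p = 0.0064), and the fibroblast markers Pdgfra, Postn, Twist1 and Thy1 were not called. Of 15 tested contractile genes 0 rose and Cnn1 (-1.204) and Myl9 (-1.13) fell, while Acta2 (0.15) and Tagln (-0.61) were not called. Most markers of cardiac muscle were at or near 0. Tnnt2 and Nkx2-5 had no read, Myh6 and Myl7 stayed at or under 3.703 RPM, and the called members of the list were Hand1 and Myl4. Myl4, an atrial and embryonic myosin light chain, had 3 reads in all on day 6 and measured 47.8, 16.5, 58.3 and 13.1 RPM on day 8, a ratio of pooled reads of 37.2 (95% exact counting interval 12.6 to 182). Blood markers were at or near 0 as well, with no read of Hba-x or Hbb-y and at most 1.999 RPM of Gata1. Tek, an endothelial receptor, changed by -1.94 (SE 0.54, limma, adjusted p = 0.031), while Kdr and Cdh5 reached at most 1.04 and 5.71 RPM. Lox lost its call without replicate 4 (adjusted p 0.0521), Myl9 lost its call without line and label as covariates and with all 36 libraries in the fit, and Pdgfrb, Cnn1, Myl4 and Tek lost theirs in each fit without 1 replicate (up to 0.117, 0.0939, 0.138 and 0.127).

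Genes of the pluripotent state fell further. Of 21 tested genes of the list named naive pluripotency 8 fell and 0 rose (2.43% of all genes were called lower), and the list median was -0.60. Pou5f1 (OCT4) measured 523, 878, 675 and 673 RPM on day 6, 256, 398, 415 and 437 on day 7 and 82.5, 229.8, 164 and 368 on day 8, so that every culture fell on both days, and the late change was -1.38 (SE 0.30, limma, adjusted p = 0.01). Nanog measured 348, 301, 370.5 and 343 RPM on day 6 and 73.2, 202, 70.5 and 264 RPM on day 8, with X14 double and X18 double the lowest (-1.08, SE 0.27, limma, adjusted p = 0.019). Fgf4, a growth factor secreted by pluripotent cells, measured 83.7, 77.8, 104 and 94.8 RPM on day 6, 26.5, 14.1, 44.6 and 34.4 on day 7 and 9.34, 8.26, 6.09 and 15.5 on day 8, and fell by 2.49 (log2, SE 0.44, limma, adjusted p = 0.003). Dppa2 measured 39.6, 9.87, 41.5 and 15.5 RPM on day 6 and 9.34, 3.401, 6.09 and 0 RPM on day 8 (-2.45, SE 0.40, limma, adjusted p = 0.0021), and its partner Dppa4 changed by -1.58 (SE 0.32, limma, adjusted p = 0.0069). Gdf3, a TGF-beta family ligand, changed by -1.69 (SE 0.28, limma, adjusted p = 0.0022). Zfp42 (-0.12) and Esrrb (-0.48), which had dropped before day 6, were not called. Without replicate 2 the adjusted p of Pou5f1 was 0.0656, without replicate 4 that of Dppa4 was 0.0587, and without replicate 1 or 3 that of Nanog was up to 0.111.

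Primed genes fell most broadly, 9 of 13 tested with a list median of -1.25 and 0 risers, against 2.43% of all genes called lower. Fgf5, Otx2, Dnmt3a and Zic5 of this list were not called. Dnmt3b, a DNA methyltransferase, measured 563, 903, 606 and 949 RPM on day 6, 282, 489.7, 277 and 339.9 on day 7 and 188, 431, 144 and 283 on day 8, and the groups did not overlap (-1.37, SE 0.18, limma, adjusted p = 0.00069). Etv4 and Etv5 are ETS factors induced by FGF signalling and Spry4 an inhibitor induced by it. Etv4 measured 11.9, 24.7, 22.8 and 29.1 RPM on day 6 and 3.11, 5.34, 0 and 5.95 RPM on day 8, a fall by 2.73 (log2, SE 0.46, limma, adjusted p = 0.0025). Etv5 measured 256, 247, 299 and 330.3 RPM on day 6 and 34.8, 105, 34.8 and 80.9 RPM on day 8 (-1.902, adjusted p = 0.001 in limma). Spry4 measured 11.9, 41.96, 11.1 and 43.4 RPM on day 6 and 2.596, 12.6, 0.8703 and 1.19 RPM on day 8 (-2.67, adjusted p = 0.0037 in limma). Tcf15 changed by -2.61, Sox3 by -1.95 and Lef1, a Wnt effector, by -1.902. Sox3 lost its call without any 1 replicate (adjusted p up to 0.158) and Lef1 without replicate 1, 3 or 4 (up to 0.155).

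**Figure D5:**
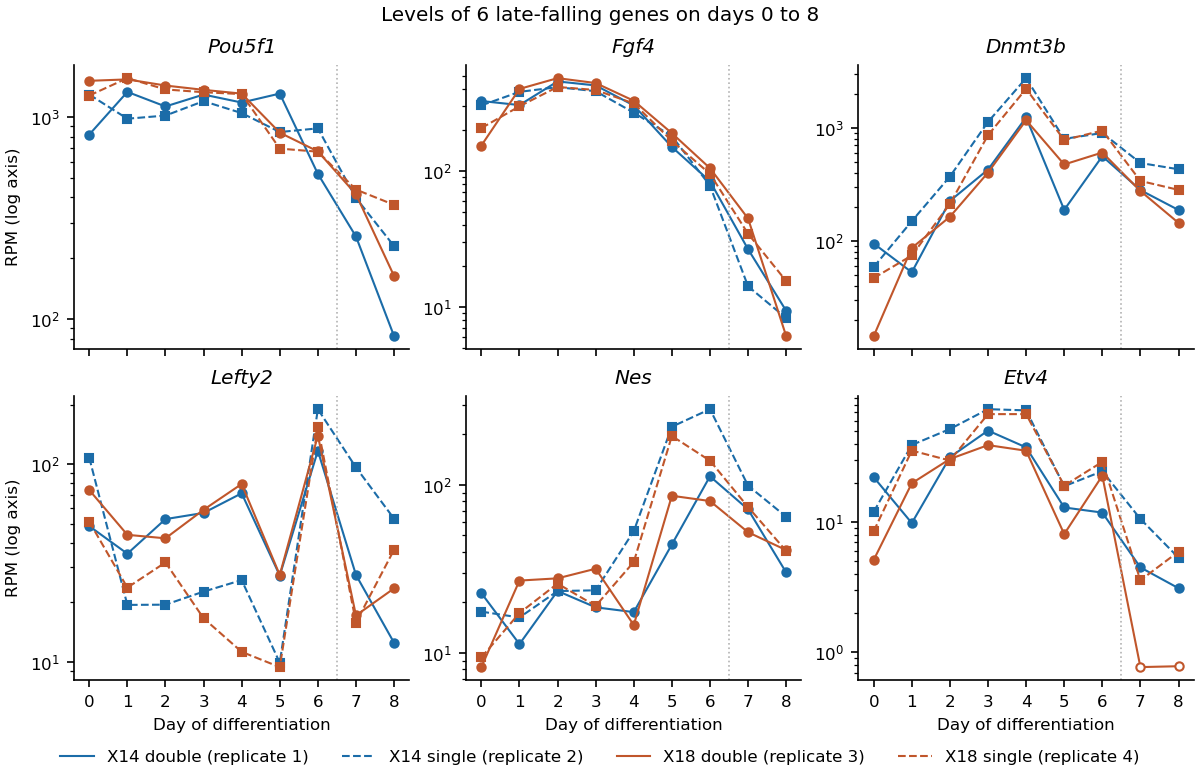
Levels of Pou5f1, Fgf4, Dnmt3b, Lefty2, Nes and Etv4 by day of differentiation (x axis) in RPM on a log axis (y axis). Lines are the 4 cultures, open symbols are libraries without a read at 0.9 read, and the dotted line separates day 6 from days 7 and 8. The mean of Fgf4 declines after day 2, that of Dnmt3b is highest on day 4 and that of Lefty2 on day 6.

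Of 12 tested genes of the primitive streak and early mesoderm 4 fell and 2 rose, beside 2.43% and 3.39% of all genes. Nodal, the ligand that patterns the streak, measured 154, 196, 133 and 138 RPM on day 6 and 31.7, 80.7, 48.7 and 97.5 RPM on day 8 (-1.28, SE 0.19, limma, adjusted p = 0.0011). Its antagonists Lefty1 and Lefty2 fell too. Lefty2 measured 117, 190.1, 139.6 and 154 RPM on day 6, 27.5, 96.4, 17.1 and 15.8 on day 7 and 12.5, 52.96, 23.5 and 36.9 on day 8 (-2.39, SE 0.34, limma, adjusted p = 0.001), and Lefty1 changed by -1.97 (SE 0.36, limma, adjusted p = 0.0036). Reads shared by these neighbouring, similar genes could have been split in counting. Their day 6 level was itself a peak, with means of 18.5 RPM on day 5 and 150.1 RPM on day 6 for Lefty2. Eomes, a T-box factor of streak and trophoblast, measured 34.5, 58.01, 44.2 and 55.8 RPM on day 6 and 4.15, 36.4, 2.61 and 11.9 RPM on day 8, with X14 single the highest of day 8 (-2.21, SE 0.43, limma, adjusted p = 0.0051), and its adjusted p was 0.0503 without replicate 3. T (Brachyury) went the other way and was uneven. It measured 9.61, 43.2, 9.68 and 27.9 RPM on day 6, 45.99, 137, 11.1 and 19.4 on day 7 and 34.3, 183, 15.7 and 68.998 on day 8, with X14 single highest on all 3 days (1.19, SE 0.34, limma, adjusted p = 0.032), and its call was lost without replicate 1, 2 or 3 (adjusted p up to 0.196). Bmp4 measured 4.52, 3.703, 5.53 and 1.86 RPM on day 6, 15.5, 7.07, 14.6 and 22.2 on day 7 and 19.2, 17.01, 25.2 and 21.4 on day 8, without overlap (2.21, SE 0.33, limma, adjusted p = 0.0012). Over 24 tested genes of BMP, TGF-beta and Wnt signalling Bmp2, Bmp4, Tgfb2 and the Wnt inhibitor Dkk1 (2.804) rose and Lef1 fell. Bmp2 had no read on day 6 and at most 8.26 RPM later, and the calls of Bmp2, Tgfb2 and Dkk1 were lost in at least 3 of the 4 fits without 1 replicate (adjusted p up to 0.104, 0.116 and 0.175).

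In the neural list 3 of 14 tested genes fell and 0 rose, beside 2.43% and 3.39% of all genes. The list median was -0.81, and Sox1 had no read. Nes, an intermediate filament of neural progenitors, measured 113, 283, 80.2 and 139 RPM on day 6 and 30.1, 64.6, 40.9 and 40.4 RPM on day 8 (-1.31, SE 0.26, limma, adjusted p = 0.0056), Tubb3 changed by -1.299 and Pax6 by 0.36, the last with an adjusted p of 0.64 (limma). Among the 15 largest falls were 3 genes of the neuronal cytoskeleton. Nefl (neurofilament light chain) measured 54.8, 153, 73.96 and 114 RPM on day 6, 14.996, 40.7, 21.4 and 39.4 on day 7 and 4.15, 14.1, 12.2 and 7.14 on day 8, without overlap (-2.61, SE 0.47, limma, adjusted p = 0.0034). Ina (alpha-internexin) measured 9.61, 27.2, 13.8 and 27.3 RPM on day 6 and 2.08, 5.83, 0 and 1.19 RPM on day 8 (-3.08, SE 0.45, limma, adjusted p = 0.0011), and the microtubule gene Mtap1a changed by -2.504 (SE 0.55, limma, adjusted p = 0.01). In the neural crest list Foxd3 (-2.44) and Ngfr (-2.58) fell and Msx2 (2.803), a homeobox target of BMP, rose, while Sox10 and Tfap2a stayed at or under 3.63 RPM. The largest fall was that of Spna1, erythroid alpha spectrin, at 14.7, 12.3, 15.2 and 14.3 RPM on day 6 and 0.519, 0.972, 0 and 0 RPM on day 8 (-3.38, SE 0.55, limma, adjusted p = 0.0021). Nefl, Ina, Shisa3 and Serpina3m each overlap another gene, so their reads may be shared with it. Further falls among the 15 were Shisa3 (-3.27), Crym (-2.99), the proteoglycan Acan (-2.72), the serpin Serpina3m (-2.700), Hsd17b14 (-2.56), the homeodomain gene Hopx (-2.55) and the matrix metalloproteinase Mmp25 (-2.53). Of the germ cell list Dazl (-1.49) and Mael (-1.11) fell, and both calls were lost without any 1 replicate (adjusted p up to 0.232 and 0.189) and with the replicate number as a block (adjusted p = 0.0582 and 0.0543). Tubb3 lost its call without any 1 replicate (adjusted p up to 0.195). Without replicate 2 the adjusted p of Nes was 0.0562. Calls were also lost for Mtap1a and Acan without replicate 3 (adjusted p 0.0791 and 0.0643), Hsd17b14 without 3 or 4 (up to 0.101), Crym without 2, 3 or 4 (up to 0.0895), Serpina3m without 1, 3 or 4 (up to 0.122) and Msx2 without 2 (0.0633).

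Of 16 tested inhibitors and growth arrest genes Cdkn1c, Gas1 (2.05), Gadd45g (1.43) and Cdkn2b (1.298) rose and 0 fell, with a list median of 0.66. Over all genes tested 3.39% were called higher and 2.43% lower, 13.2% had an adjusted p under 0.05 at any fold and 51.2% a log2 change above 0. Of 24 proliferation genes 0 were called by limma, 4 had an adjusted p under 0.05 at less than the minimum fold, and the list median was -0.18. A log2 change above 0 was seen in 4 of the 24. The summed level of this list was 5701 to 7035 RPM on day 6 and 3960 to 6213 RPM on day 8. In the lysosome list the median was 0.60, all 20 tested genes had a log2 change above 0, 14 had an adjusted p under 0.05, and Ctsa, Lamp2 and Ctsb passed the minimum fold as well. Ctsb (cathepsin B) measured 187, 106, 167 and 141 RPM on day 6 and 671, 302, 715 and 320.0 RPM on day 8, and the groups did not overlap (1.25, SE 0.23, limma, adjusted p = 0.0037). Of 18 hypoxia genes 9 had an adjusted p under 0.05 and 12 a log2 change above 0, and Ndrg1 alone passed the minimum fold, at 146, 37.03, 167 and 49.6 RPM on day 6, 459.9, 194, 428 and 247 on day 7 and 806, 335, 626 and 222 on day 8 (2.18, SE 0.21, limma, adjusted p = 0.0001), and the median of the list was 0.17. Cd68, a lysosomal protein of macrophages and other cells, rose by 1.495 (SE 0.28, limma, adjusted p = 0.0046), while the macrophage markers Ptprc and Lyz2 had no read and Csf1r was not called (0.23). Cd68 and Gadd45g lost their call without line and label as covariates and with all 36 libraries in the fit. The call of Gas1 was lost without replicate 1, 2 or 3 (adjusted p up to 0.157) and that of Cdkn2b without 2, 3 or 4 (up to 0.123).

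Days 7 and 8 also differed from each other. Between them 233 genes (1.76%) changed, 141 higher and 92 lower on day 8 (limma, day as 3 levels), and 2500 genes had an unadjusted p under 0.05. Of the 449 late risers 366 had a higher fitted level on day 8 than on day 7, and 61 of them passed the test for this step. Among the 322 fallers 271 were lower on day 8 and 30 passed. Against day 6, Plac1 stood 2.98 higher on day 7 and 5.56 higher on day 8, and the step between was 2.58 (SE 0.34, limma, adjusted p = 0.0013). Rhox6 had 2.92 and 5.24 with a step of 2.32 (SE 0.28, limma, adjusted p = 0.00084), and Cdkn1c had 1.03 and 2.95 with a step of 1.92 (SE 0.19, limma, adjusted p = 0.0004). Myl4 had 1.41 and 4.95 with a step of 3.55 (SE 0.52, limma, adjusted p = 0.0031). Tmprss2 had 3.52 on day 7 and 4.44 on day 8, and its step did not pass (0.91, limma, adjusted p = 0.18). Lefty2 had -2.35 and -2.43 with a step of -0.08 (SE 0.39), and Foxa2 3.75 and 3.34 with a step of -0.41 (SE 0.50). The 233 calls fell to 66, 133, 25 and 154 without replicates 1, 2, 3 and 4.

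On day 6 328 of the 449 risers had a higher mean log2 level in double than in single libraries, with a median difference of 0.68, on day 7 363 with 0.62 and on day 8 373 with 0.83. Over all 13236 tested genes double was above single in 7211, 6581 and 6657 on these days, and the medians were 0.05, -0.00 and 0.00. For the fallers they were -0.31, -0.44 and -0.52. In the fit over the 12 libraries the log2 difference of double minus single was 3.23 for Plac1, 2.96 for Hand1, -1.77 for T and -1.63 for Eomes. Label varied only between the 4 cultures and each culture gave a library on every day, so these differences are given without a test. The late change itself was not shown to differ: 0 genes (0%) passed the test of the interaction of late stage and label, with 626 at an unadjusted p under 0.05 and a lowest adjusted p of 0.19 (limma). For the interaction with line it was again 0 genes, with 964 at an unadjusted p under 0.05 and a lowest adjusted p of 0.63 (limma). With voom weights both counts were 0 as well, and with all 36 libraries in the fit 2 genes passed for label. For H19 the late change was -0.39 (SE 0.64) in double relative to single libraries, and for Plac1 -0.996 (SE 1.33).

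Days 0 to 5, which the comparison did not use, place these genes in the whole course. The late level entered the choice of risers and fallers, so counts of earlier days against it are a description and not independent support. The median level of the 449 risers was 2.88 RPM at the start and 3.15 on day 4, went from 4.92 to 5.83 between days 5 and 6, and stood at 14.1 and 21.8 on days 7 and 8. Their late level was above that of day 5 in 409 of 449, and by at least 1 on the log2 scale in 314, beside 8146 and 2078 of all 13236. On days 0 to 4 no day's mean reached 1 RPM for 81 risers (and 659 of all 13236 genes), as for Plac1, Vnn1 and Foxa2, while Rhox6 and Tfap2c had been present on day 0 (11.6 and 95.9 RPM), were lower on day 5 (1.52 and 15.9 RPM) and returned. The median level of the 322 fallers was 14.8 RPM at the start and 27.03 on day 4, went from 15.8 to 22.3 between days 5 and 6, and ended at 7.52 on day 8. For 74 of them the late level lay above that of day 5, beside 8146 of all genes, and day 6 was then above both. Late levels were below day 0 in 180 fallers and below day 4 in 270, beside 5058 and 5587 of all 13236 genes.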

How the data were processed

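RNA-seq libraries of differentiating Xmas mESCs were read from a table of 25965 genes deposited by the authors as log2 values. Per the paper's methods, 75 bp single-end reads were trimmed, aligned to mm10 with TopHat or HISAT2 (TopHat2 2.0.12 in the submitters' processing notes) and quantified in SeqMonk. The annotation version and use of strand are not given in the sources used here. The values behave as log2 RPKM, with a gene without reads written as 0.9 read, and whole reads were recovered for 100.0% of values (within 0.05 read) and printed as RPM. Of the value columns 0 were left unmapped.

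Libraries of days 6, 7 and 8 were fitted with limma 3.58.1 (R 4.3.3, lmFit and eBayes with trend, two-sided, 8 residual degrees of freedom) on the deposited log2 values, with late stage, line and label as terms. Genes with at least 1 RPM in at least 4 of the 12 libraries were tested (13236), p-values were adjusted by Benjamini-Hochberg over all of them, and a gene was called at an adjusted p under 0.05 and a change of at least 1 on the log2 scale. Count models were not used, since the deposited unit is not counts. A voom fit of the recovered reads was an alternative, as were other scalings, filters, thinning, all 36 libraries, the replicate block and leaving out each replicate. The code was tested on simulated data.

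Named were H19 and Igf2, the 15 largest rises and falls with one sign in all 4 cultures and 10 RPM in the higher group (no predicted genes), up to 4 called genes a direction from each list, and defining markers. The members, lists and tests were chosen with earlier results of these data known. Replicate numbers name the same line and label on each day, and same-numbered libraries deviated together (correlations 0.141 to 0.529, with 11 of 12 libraries best correlated with their own number). Between different numbers on different days the correlation reached 0.278, above the lowest of the same-number values. The fit treats the 12 libraries as independent and has no term for culture. Line and label absorb most of the difference between cultures, so p-values rest mostly on the spread between libraries of one culture on different days. Intervals and floors of 3 reads cover counting error only. Libraries of one day differed by more than sampling noise.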

Additional observations from a re-analysis of the deposited data

Results flagged for a closer look

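Of 96 groups of 4 libraries (32 genes on 3 days), 3 held a library far from the others by Dixon's criterion, and chance flags about 1 in 20 groups. Kitl on day 6 was highest in X18 double at 2.77 RPM, beside 1.13, 0 and 1.24 RPM. Hsd17b14 on day 7 was lowest in X18 single at 0.717 RPM, beside 6.998, 6.19 and 5.14 RPM. Spna1 on day 7 was lowest in X18 double at 0.857 RPM, beside 2.999, 3.54 and 2.87 RPM. Each of these levels is a few reads, and their part in the late changes was not tested.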

How the results depend on the processing

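The 104 named genes that were called kept their direction in each alternative that tested them. Of 26 named genes that were not called and were followed through the alternatives, 8 changed sign in at least 1 (Lamb1, Mixl1, Csf1r, Zfp42, Sparc, Twist1, Col1a1 and Epcam), each with a change of at most 0.27 on the log2 scale in the reported fit. The 771 calls of days 7 and 8 against day 6 became 1748 with no minimum fold change, 302 without covariates and 472 at a mean of at least 10 RPM, and 339 to 456 when 1 replicate was left out. The 233 calls of day 8 against day 7 became 407 with no minimum fold change, 3 without covariates, 150 with reads thinned to one depth and 109 with all 36 libraries in the fit, and 25 to 154 when 1 replicate was left out. The 0 genes whose late change differed between labels became 2 with all 36 libraries. The cause of these shifts was not tested, except that fewer genes are tested at 10 RPM and fewer samples remain without a replicate. With the replicate block in place of line and label 686 genes were called, 679 of them shared with the 771, and 186 between days 7 and 8. The block ended 7 of 104 calls of named genes, each given with its gene. Without covariates 46 of the 104 calls were lost, with thinned reads 19, with all 36 libraries 17 and with voom 11. Calls that held in every fit without a replicate but were lost elsewhere were those of Gata2, Wnt6, Dlx3, Lamp2, Dppa2, Spry4 and Pim2 without covariates, of Cd68, Gadd45g and Myl9 without covariates and with all 36 libraries, and of Krt20 with thinned reads. With days 7 and 8 averaged per culture and a replicate block, 842 genes were called. Of the 104, 53 were called in all 4 fits without a replicate and 15 in none. At this depth 3 reads are 1.46 to 3.70 RPM, so lower genes could not be resolved.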
